A study of Mus musculus with 7 samples.

Results

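The genes described here build and read the matrix around epidermal cells: chains of collagens and laminins, other basement membrane and niche glycoproteins, plakin linkers of the hemidesmosome, and integrins, the cell surface receptors for these ligands. They were taken from the deposited table by their symbols, a rule that used no measured value, and 44 of its 7091 genes matched. Among them were 13 collagen chains, 13 integrin subunits, 4 laminin chains and 14 other genes. Of these 14, Col4a3bp encodes a ceramide transfer protein, Itgb1bp1 an adaptor that binds an integrin tail, and neither encodes a matrix protein. In GENCODE M21, 106 protein-coding genes have a symbol that fits the rule, and the others, with Itga6, Itgb1, Itga3, Lama3, Col7a1 and Fn1 among them, were not analysed here.

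RNA was sequenced in bulk from epidermis separated from telogen (resting phase) mouse skin. The 4 KA mice carried K14-CreERT, a recombinase that tamoxifen activates in keratin 14-expressing basal keratinocytes, together with a conditional Abca12 allele (K14-CreERT;ABCA12-cKO), and the 3 controls carried the conditional allele (ABCA12-c/c) without CreERT. All 7 received 1 mg tamoxifen per 40 g of body weight on 3 consecutive days at 8 weeks of age, and skin was taken 2 weeks later, so that an active recombinase and the loss of Abca12, a keratinocyte lipid transporter, cannot be told apart. KA 1 and KA 2 were male and KA 3 and KA 4 female, whereas controls 1 and 3 were female and control 2 male. Animal numbers in the titles form a lower run (controls 1 and 2, KA 1 and KA 2) and a higher run (control 3, KA 3 and KA 4), and the titles also carry a letter, A for control 1 and KA 1, B for control 2 and KA 2, and C for control 3, KA 3 and KA 4. The labels give the meaning of neither. Abca12 itself was not analysed here, and the genotype labels were taken as given.

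The table lists 7091 of 19407 genes (36.5%), those whose adjusted p fell under 0.05 in the authors' own test of these libraries, so every gene below had already passed a test. Among the 44 genes, the authors' values nearest that threshold belonged to Fras1 (adjusted p = 0.0490), Npnt (0.0469) and Itgb1bp1 (0.0460). Genes beyond the threshold were not analysed here. Reads in the listed genes came to between 9590718 and 12761458 per library, which is part of each library and not its depth. Krt5, a keratin of basal keratinocytes, lay between 220535 and 241216 normalised reads in controls and between 291476 and 354814 in KA. None of 10 dermal fibroblast markers and none of 6 mast cell markers was in the table, so their levels were not analysed here. Values per library are given in the order of the sample numbers, 1 to 3 for controls and 1 to 4 for KA. Normalised reads are the authors' counts divided by their size factor for each library. In bulk tissue, fewer cells of a type and less RNA per cell cannot be told apart.

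Basal keratinocytes sit on a basement membrane, a thin sheet in which a laminin network and a collagen IV network are joined by nidogens and by heparan sulfate proteoglycans such as perlecan and agrin. Hemidesmosomes fasten the cells to this sheet: integrin α6β4 and collagen XVII cross the membrane, and plectin and the epithelial form of dystonin tie them to keratin filaments. Stem cells of the hair follicle bulge lie on a specialised stretch of the same membrane that holds additional ligands, nephronectin being one of them.

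In KA epidermis 27 of the 44 genes were lower and 15 higher than in controls at an adjusted p-value under 0.05 (edgeR quasi-likelihood test, Benjamini-Hochberg adjustment over 6761 genes). Called genes were thus 95.5% of the 44, beside 91.5% of all genes tested, 47.5% lower and 44.0% higher, and this share follows from how the table was made. Counts of genes lower or higher in each list below are to be read beside these same shares. All 44 passed the filter on low counts. The 4 KA values lay wholly outside the 3 control values in 40 of the 44, or 90.9%, against 93.5% of all tested genes. The median log2 fold change was -0.65 for the 44 and 0.22 over all genes tested. With the authors' size factors in place of factors from the listed genes, log2 fold changes moved up by a median of 0.134, the counts became 27 lower and 17 higher, and none of the 44 changed direction. The authors' own test had selected the table, so calls with their size factors were largely fixed in advance.

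**Figure D1:**
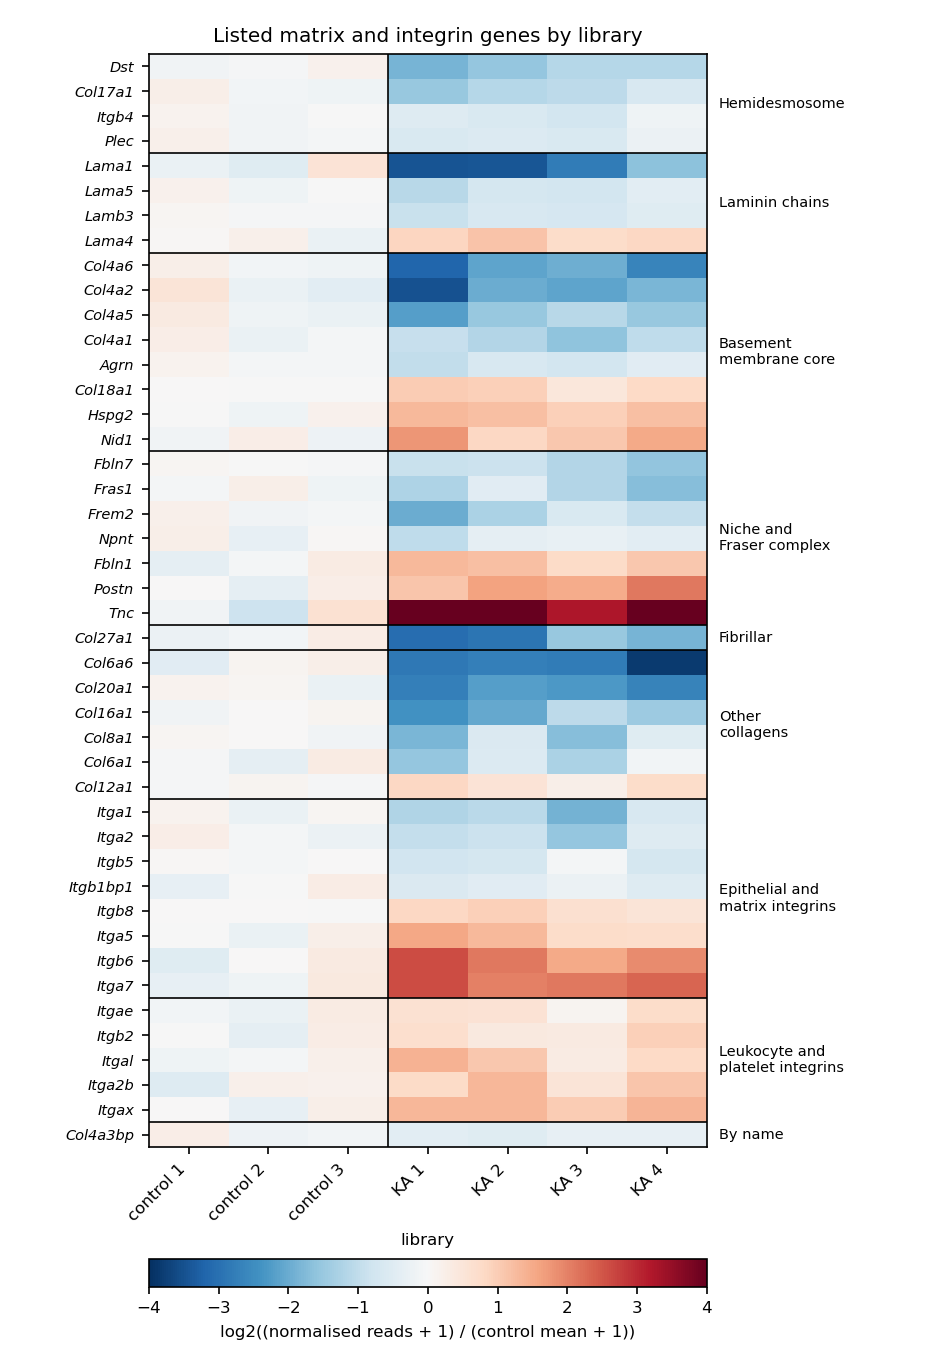
Each row is 1 of the 44 genes and each column 1 of the 7 libraries, and colour gives log2 of (normalised reads + 1) over (control mean + 1), with red above and blue below the control mean and colours saturating at 4 in either direction. Hemidesmosome, collagen IV and most other collagen rows are blue across the KA columns, while Tnc is the darkest red and exceeds the colour range in 3 KA libraries.

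Of the list of 5 hemidesmosome genes, 4 were in the table and all 4 were lower in KA, beside 47.5% of all genes tested. Col17a1 (ENSMUSG00000025064, chromosome 19, 47646344 to 47692094), which encodes the transmembrane collagen XVII, had 59867, 47379 and 45173 normalised reads in controls against 17780.5, 23044, 24681 and 32622 in KA. The highest KA library held less than the lowest control, and the log2 fold change was -1.18, SE 0.21, adjusted p = 0.000762. Dst (ENSMUSG00000026131, chromosome 1, 33908225 to 34308661), the dystonin gene, had 21979, 23387 and 26843 normalised reads in controls against 6611, 8268, 11005 and 10983 in KA. It had the largest fall of the 4 (log2 fold change -1.51, SE 0.20, adjusted p = 0.000129). Reads are given per gene, so the epithelial form was not measured apart from other isoforms, and an unstranded count could not separate it from Gm26788, which overlaps it on the opposite strand and had a log2 fold change of -1.85.

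Plec and Itgb4 fell by less. Plec (ENSMUSG00000022565, chromosome 15, 76170974 to 76232574), the plectin gene, had 12796, 10282 and 10626 normalised reads in controls against 7339, 7763, 7379 and 9624 in KA (log2 fold change -0.62, SE 0.15, adjusted p = 0.00328). Itgb4 (ENSMUSG00000020758, chromosome 11, 115974709 to 116008412), the β4 subunit found in the hemidesmosomal integrin, had 9623, 7928 and 8662 normalised reads in controls against 6075, 5778, 5284 and 7731 in KA (log2 fold change -0.63, SE 0.15, adjusted p = 0.00346). In both genes every KA library lay below every control. Among females alone (2 KA, 2 controls) Plec missed the threshold at an adjusted p of 0.0503, with a log2 fold change of -0.56. Gene lengths in the table do not separate isoforms (41155 bases for Dst), and the level of a ratio per kilobase depends on them. The ratio of Dst to Plec, each per kilobase of the gene length in the table, was 0.756, 1.00 and 1.11 in controls against 0.396, 0.469, 0.656 and 0.502 in KA. Similarly, Col17a1 over Itgb4 per kilobase was 7.57, 7.27 and 6.35 in controls against 3.56, 4.85, 5.68 and 5.13 in KA. In neither ratio did the groups overlap (two-sided exact permutation p = 0.0571 for each, the smallest that 4 against 3 libraries can give, and 0.0571 after adjustment over 5 such ratios, which were chosen after the values were seen). The basal keratin gene Krt14 went the other way and lay between 97831 and 129687 normalised reads in controls and between 289025 and 390177 in KA (log2 fold change 1.45, SE 0.16, adjusted p = 6.56e-05). Of 6 suprabasal keratinocyte markers 5 were in the table, 3 higher (Krt1, Flg and Ivl) and 2 lower (Lor and Grhl1), with a sum of 130079 to 160771 normalised reads in controls and 267157 to 425386 in KA. Krt1, a keratin of differentiating cells, rose (log2 fold change 2.25, SE 0.22, adjusted p = 3.19e-05), and Lor, the loricrin gene, fell (log2 fold change -1.97, SE 0.48, adjusted p = 0.0046). The part of these cell states in the hemidesmosome results was not tested.

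Among laminin chains, 3 fell and 1 rose of the 4 in the table, out of 11 on the list. Lamb3 (ENSMUSG00000026639, chromosome 1, 193207699 to 193343878), a chain of the laminin that hemidesmosomes bind, had 7978, 7238 and 7355 normalised reads in controls against 4086, 4873, 4759.5 and 5349 in KA (log2 fold change -0.79, SE 0.13, adjusted p = 0.000469). Lama5 (ENSMUSG00000015647, chromosome 2, 180176373 to 180225859), the α chain of the other main epidermal laminin, had 3463, 2748 and 3104 normalised reads in controls against 1449, 1887, 1875 and 2313 in KA (log2 fold change -0.85, SE 0.17, adjusted p = 0.00122). In both genes every KA library lay below every control.

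Lama1 (ENSMUSG00000032796, chromosome 17, 67697259 to 67822647), a laminin α chain best known from embryonic basement membranes, had 716, 608 and 1253 normalised reads in controls against 78.1, 78.9, 124 and 277 in KA. It showed the largest fall among the laminin chains (log2 fold change -2.74, SE 0.46, adjusted p = 0.000825) and the widest relative spread, with control 3 and KA 4 highest in their groups. Lama4 (ENSMUSG00000019846, chromosome 10, 38965515 to 39110188), a chain typical of vessel walls and other mesenchymal basement membranes, moved the other way, with 144, 159 and 115 normalised reads in controls against 254, 309, 233 and 249 in KA (log2 fold change 0.77, SE 0.19, adjusted p = 0.0039). The endothelial markers in the table, Pecam1, Flt1 and Egfl7 (3 of 10), also rose. Their summed level was 16.1 to 44.9 normalised reads in controls and 80.4 to 139 in KA, and their part in the Lama4 result was not tested. Lamb3 overlaps other annotated genes on both strands, Hsd11b1 and G0s2 on the opposite strand among them, so some of its reads are uncertain.

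**Figure D2:**
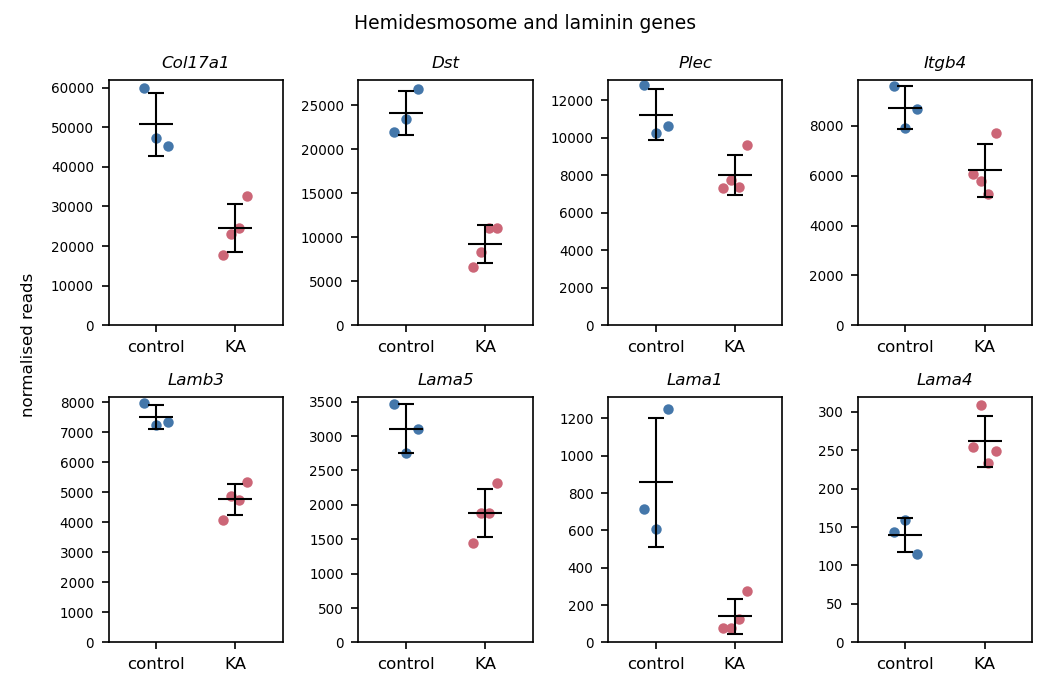
Points are normalised reads per library for 4 hemidesmosome and 4 laminin genes (3 controls in blue, 4 KA in red), each on its own linear axis from 0, with bars for mean and SD. In the first 7 panels every KA point lies below every control point, and in the Lama4 panel every KA point lies above.

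Of collagen IV, 4 chain genes were in the table and all of them fell, while Col4a3 and Col4a4 were not analysed here. The 4 genes are arranged as head-to-head pairs: Col4a1 and Col4a2 on chromosome 8 overlap by 22 bases at their 5′ ends, and Col4a6 and Col4a5 on the X chromosome are separated by 1308 bases. Their promoter windows, 250 bases before to 50 after the RefSeq start site on GRCm38.p6, are shown because both genes of each pair moved the same way. In the first pair below the capitals mark the 78 bases that both windows share, read on opposite strands (Col4a1, minus strand, chr8:11312777-11313076, and Col4a2, plus strand, chr8:11312555-11312854).
Col4a1: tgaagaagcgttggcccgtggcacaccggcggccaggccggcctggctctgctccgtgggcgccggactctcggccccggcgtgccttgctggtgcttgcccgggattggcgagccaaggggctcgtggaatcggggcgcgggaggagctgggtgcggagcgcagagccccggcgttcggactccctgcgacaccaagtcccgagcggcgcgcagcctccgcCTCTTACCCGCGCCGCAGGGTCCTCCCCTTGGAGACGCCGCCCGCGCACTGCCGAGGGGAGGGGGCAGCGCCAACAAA
Col4a2: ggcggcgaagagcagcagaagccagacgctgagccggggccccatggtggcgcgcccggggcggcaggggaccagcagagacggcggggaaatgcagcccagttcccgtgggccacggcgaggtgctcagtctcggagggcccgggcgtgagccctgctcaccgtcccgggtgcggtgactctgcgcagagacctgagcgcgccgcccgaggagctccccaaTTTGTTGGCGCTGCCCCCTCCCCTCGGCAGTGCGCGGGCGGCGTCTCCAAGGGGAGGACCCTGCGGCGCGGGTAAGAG
The start sites of this pair lie 21 bases apart. In the second pair, with start sites 1343 bases apart, the windows do not meet, and capitals mark matches to CCAAT or GGGCGG on either strand (Col4a6, minus strand, chrX:141474027-141474326, and Col4a5, plus strand, chrX:141475169-141475468).
Col4a6: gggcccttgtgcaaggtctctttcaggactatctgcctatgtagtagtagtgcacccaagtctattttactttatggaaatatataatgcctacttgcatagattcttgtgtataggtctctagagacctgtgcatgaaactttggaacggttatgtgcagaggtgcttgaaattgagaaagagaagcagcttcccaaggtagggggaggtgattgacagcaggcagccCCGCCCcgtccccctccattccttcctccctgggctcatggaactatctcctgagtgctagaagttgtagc
Col4a5: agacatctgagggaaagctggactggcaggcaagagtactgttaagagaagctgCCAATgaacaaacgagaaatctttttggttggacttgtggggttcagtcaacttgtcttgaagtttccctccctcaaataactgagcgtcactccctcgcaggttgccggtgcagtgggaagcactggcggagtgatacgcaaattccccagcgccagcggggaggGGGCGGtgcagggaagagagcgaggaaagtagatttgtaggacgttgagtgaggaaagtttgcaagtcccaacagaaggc
GGGCGG (the GC box) occurred in all 4 windows, with 1 match in Col4a1, 3 in Col4a2 and 1 each in Col4a6 and Col4a5. The Col4a1 match and 1 of those in Col4a2 are the same site in the shared bases, read on opposite strands. GGGCGG was held by 35.7% of all 32851 RefSeq windows, and by 19 of the 33 windows of genes described here (57.6%). The 33 were taken as 1 window per gene, and the 32851 were not. CCAAT occurred once each in Col4a1, Col4a2 and Col4a5 and in 37.4% of all windows, and TATAAA in none of the 4 and in 13.6% of all windows, with both strands searched in each case. A match describes the letters only.

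Col4a1 (ENSMUSG00000031502, chromosome 8, 11198423 to 11312826) and Col4a2 (ENSMUSG00000031503, chromosome 8, 11312805 to 11449287) encode the chains of the collagen IV found in nearly all basement membranes. Col4a1 had 400.5, 277 and 315 normalised reads in controls against 173, 145, 107 and 164 in KA (log2 fold change -1.31, SE 0.21, adjusted p = 0.000378). Col4a2 had 673, 389 and 352 normalised reads in controls against 41.5, 118, 109 and 133 in KA (log2 fold change -2.36, SE 0.38, adjusted p = 0.000447). Relative to its partner, Col4a2 was lower in KA: Col4a2 over Col4a1, per kilobase, was 1.90, 1.58 and 1.26 in controls against 0.271, 0.918, 1.15 and 0.914 in KA. KA 1 held the most Col4a1 and the least Col4a2 of the KA libraries.

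Col4a5 (ENSMUSG00000031274, chromosome X, 141475385 to 141689234) and Col4a6 (ENSMUSG00000031273, chromosome X, 141165403 to 141474076) encode chains of a second collagen IV network that the epidermal basement membrane also contains. Col4a5 had 892, 629 and 584 normalised reads in controls against 151, 246, 325 and 244 in KA (log2 fold change -1.67, SE 0.26, adjusted p = 0.000351). Col4a6 had 1263, 999 and 956 normalised reads in controls against 119, 250.1, 275 and 173 in KA, the largest fall of the collagen IV chains (log2 fold change -2.52, SE 0.27, adjusted p = 5.7e-05). Col4a6 over Col4a5, per kilobase, was 1.19, 1.34 and 1.38 in controls against 0.661, 0.858, 0.713 and 0.599 in KA. Both ratios separated the groups without overlap (two-sided exact permutation p = 0.0571 each, the smallest possible, and 0.0571 after adjustment over 5 ratios). The ratios were chosen after the values were seen, so this p-value only restates the separation. All 4 chains stood lower in every KA library than in any control.

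The proteoglycans of the basement membrane split in direction. Agrn (ENSMUSG00000041936, chromosome 4, 156165290 to 156197488), the agrin gene, fell, with 9148, 7926 and 7914 normalised reads in controls against 4225, 5398, 4997 and 6120.2 in KA (log2 fold change -0.82, SE 0.15, adjusted p = 0.000871). Hspg2 (ENSMUSG00000028763, chromosome 4, 137468769 to 137570630), the perlecan gene, rose, with 564, 508 and 645 normalised reads in controls against 1409, 1319, 1112 and 1316 in KA (log2 fold change 1.03, SE 0.13, adjusted p = 0.000101). Col18a1 (ENSMUSG00000001435, chromosome 10, 77052178 to 77166548), whose product collagen XVIII carries heparan sulfate and contains endostatin, rose as well, with 1289, 1264 and 1262 normalised reads in controls against 2576, 2467, 1734 and 2205 in KA (log2 fold change 0.68, SE 0.13, adjusted p = 0.00118). The controls lay close together and KA 3 was the lowest KA library. Nid1 (ENSMUSG00000005397, chromosome 13, 13437551 to 13512269), the nidogen-1 linker gene, was scarce, with 8, 10 and 9 raw counts in controls against 31, 14, 18 and 25 in KA (log2 fold change 1.31, SE 0.40, adjusted p = 0.0102), and it missed the threshold among the lower run of animal numbers alone (adjusted p = 0.0580). Endothelial markers rose in the same libraries, as given above for Lama4, and their part in the rises of Hspg2, Col18a1 and Nid1 was not tested. In all, 5 of the 8 basement membrane core genes in the table fell and 3 rose.

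Among ligands of the follicle niche and of wounds, Tnc and Postn had the largest rises. Tnc (ENSMUSG00000028364, chromosome 4, 63959785 to 64047015), the gene of tenascin-C, a glycoprotein associated with healing wounds and inflamed skin, had 105, 64.9 and 178 normalised reads in controls against 2469, 1876, 1109 and 2396 in KA. The lowest KA library exceeded the highest control, and the log2 fold change was 3.93, SE 0.38, adjusted p = 4.45e-05, the largest rise of the 44 genes. Its promoter window (minus strand, chr4:64046966-64047265) is shown for that reason, with capitals at matches to GGGCGG and TATAAA.
Tnc: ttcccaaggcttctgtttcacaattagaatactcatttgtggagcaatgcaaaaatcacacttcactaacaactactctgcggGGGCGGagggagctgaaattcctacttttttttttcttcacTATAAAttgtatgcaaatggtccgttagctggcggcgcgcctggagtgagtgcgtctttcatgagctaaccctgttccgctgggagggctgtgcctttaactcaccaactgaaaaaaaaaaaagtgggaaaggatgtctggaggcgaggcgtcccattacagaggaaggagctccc
A noncoding transcript, 8030451A03Rik, overlaps Tnc on the opposite strand and is also in the table, so reads of the 2 genes could be separated only by a stranded count. For comparison the window of Col17a1, the hemidesmosome gene described above (minus strand, chr19:47691993-47692292), is given with capitals at TATAAA and at CCAAT read on the other strand.
Col17a1: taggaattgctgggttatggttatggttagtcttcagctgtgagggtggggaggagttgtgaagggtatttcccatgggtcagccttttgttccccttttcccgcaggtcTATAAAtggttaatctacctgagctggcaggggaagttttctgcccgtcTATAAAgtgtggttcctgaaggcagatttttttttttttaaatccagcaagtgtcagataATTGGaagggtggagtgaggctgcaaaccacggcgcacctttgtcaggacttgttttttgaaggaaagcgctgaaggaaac
TATAAA occurred in the windows of 3 of the 33 genes with one, Tnc (1 match) and Col17a1 (2 matches) among them. TGANTCA, the letters of AP-1 sites, was found in neither window, in 2 of the 33 and in 7.81% of all windows.

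Postn (ENSMUSG00000027750, chromosome 3, 54361109 to 54391037), the periostin gene, had 5384, 4129.8 and 6441 normalised reads in controls against 11554, 16091, 15001 and 22721 in KA (log2 fold change 1.49, SE 0.24, adjusted p = 0.000476). KA 4 was highest and every KA library exceeded every control. Fbln1 (ENSMUSG00000006369, chromosome 15, 85205949 to 85286535), encoding fibulin-1 of basement membranes and elastic fibres, had 242, 297 and 394 normalised reads in controls against 762, 714, 531 and 663 in KA (log2 fold change 0.97, SE 0.18, adjusted p = 0.000847). These 3 were the rises among the 7 niche and Fraser complex genes in the table, of 14 on the list.

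The other 4 fell. Frem2 (ENSMUSG00000037016, chromosome 3, 53513938 to 53657355) and Fras1 encode parts of the Fraser complex, which holds epithelium to mesenchyme just beneath the basement membrane. Frem2 had 880.5, 692 and 731 normalised reads in controls against 194, 320.0, 504 and 393 in KA (log2 fold change -1.25, SE 0.28, adjusted p = 0.00263), and Fras1 had 29, 34 and 32 raw counts in controls against 12, 19, 12 and 8 in KA (log2 fold change -1.25, SE 0.38, adjusted p = 0.00991). Fbln7 had 70.1, 66.0 and 65.0 normalised reads in controls against 35.6, 36.1, 29.2 and 21.8 in KA (log2 fold change -1.26, SE 0.27, adjusted p = 0.00177). Npnt (ENSMUSG00000040998, chromosome 3, 132881745 to 132950291), encoding nephronectin, a ligand of integrin α8β1 that bulge cells lay down, had 514, 352 and 452 normalised reads in controls against 218, 340.3, 355 and 331 in KA (log2 fold change -0.63, SE 0.21, adjusted p = 0.0162). Its groups overlapped, KA 3 lying just above control 2, and the call was lost without control 1 (adjusted p = 0.0915) and without control 3 (adjusted p = 0.0506). Fras1 lost it in the lower run of animal numbers alone (adjusted p = 0.0631).

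Markers of bulge keratinocytes were measured beside these genes. Of 8 on the list, 4 were in the table, 3 of them lower and 1 (Sox9) not past the threshold. Krt15, a keratin of bulge and basal cells, had 148772, 179661 and 196411 normalised reads in controls against 18090.1, 39308, 70040.3 and 32719.9 in KA (log2 fold change -2.25, SE 0.38, adjusted p = 0.000686). The sum of the 4, nearly all of it Krt15, ran from 150119 to 197645 normalised reads in controls and from 19642 to 71820.0 in KA. Fgf18 (log2 fold change -1.29, SE 0.36, adjusted p = 0.0067) and Lgr5 (log2 fold change -0.91, SE 0.32, adjusted p = 0.0183) were the others that fell, and the groups overlapped in Lgr5. Sox9 had a higher mean in KA, 1385 against 977 normalised reads, also with overlap. Its log2 fold change was 0.36, SE 0.17 (adjusted p = 0.0620, and 0.0163 with the authors' size factors). The part of these markers in the falls of Npnt, Frem2 and collagen IV was not tested.

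**Figure D3:**
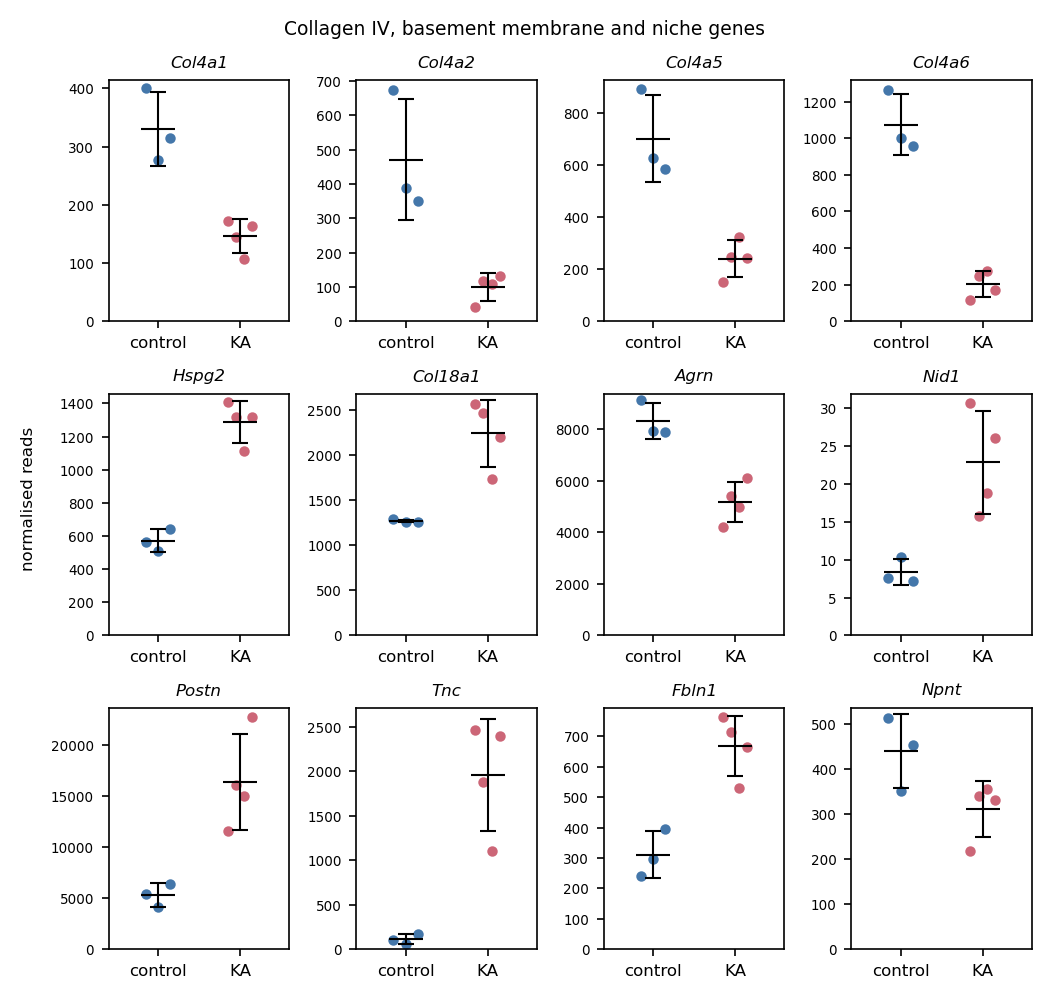
Normalised reads per library are plotted for 12 collagen IV, basement membrane and niche genes (controls blue, KA red, bars for mean and SD, linear axes from 0). Collagen IV and Agrn points are lower in KA, those of Hspg2, Col18a1, Nid1, Postn, Tnc and Fbln1 are higher, and Npnt is the panel in which the groups overlap.

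Collagens outside the basement membrane were mostly lower. Of the 7 listed, 6 fell and Col12a1 rose, beside 47.5% lower and 44.0% higher of all genes tested. Col16a1 (ENSMUSG00000040690, chromosome 4, 130047840 to 130099283), a fibril-associated collagen, was the most abundant of them, with 4341, 4883 and 5169 normalised reads in controls against 894, 1151, 2329 and 1759 in KA (log2 fold change -1.77, SE 0.29, adjusted p = 0.000613). Col20a1 (ENSMUSG00000016356, chromosome 2, 180986535 to 181018363), a related collagen, had 328, 318 and 249 normalised reads in controls against 43.5, 64.2, 59.5 and 45.7 in KA (log2 fold change -2.62, SE 0.22, adjusted p = 1.55e-05). Both showed KA levels far under the lowest control, and the Col20a1 libraries of KA lay close together. Col27a1 (ENSMUSG00000045672, chromosome 4, 63214004 to 63334991), the only 1 of 11 fibril-forming collagen genes that was in the table, had 161, 174 and 229 normalised reads in controls against 21.8, 23.7, 65.8 and 50.9 in KA (log2 fold change -2.33, SE 0.37, adjusted p = 0.000397).

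Col8a1, a short-chain collagen, had 134, 127 and 115 normalised reads in controls against 34.6, 83.4, 37.6 and 90.3 in KA (log2 fold change -1.16, SE 0.35, adjusted p = 0.00988), with KA 1 and KA 3 below KA 2 and KA 4. Collagen VI was represented by Col6a1 and Col6a6. Col6a6 had 10, 14 and 20 raw counts in controls against at most 1 in any KA library, so it was at least 4.23-fold lower when each KA library is set to a floor of 3 counts. Col6a1 had 361, 288 and 470.0 normalised reads in controls against 128, 254, 156 and 347 in KA (log2 fold change -0.88, SE 0.33, adjusted p = 0.0265). The groups overlapped through KA 4, and the call was lost without control 1 (adjusted p = 0.0638), without control 3 (0.115) or without KA 3 (0.0574). Col12a1 (ENSMUSG00000032332, chromosome 9, 79598991 to 79718831), a fibril-associated collagen, had 379, 425 and 377 normalised reads in controls against 693, 570.1, 463 and 654 in KA (log2 fold change 0.46, SE 0.15, adjusted p = 0.0155), with all KA libraries above all controls. Among females alone its log2 fold change was 0.47 (adjusted p = 0.0914).

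The Schwann cell marker Ngfr, the 1 of 5 such markers in the table, had 789, 609 and 577 normalised reads in controls against 139, 139, 168 and 278 in KA (log2 fold change -1.99, SE 0.26, adjusted p = 0.000139). It fell in the same libraries as these collagens, and its part in their results was not tested.

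Integrin genes of epithelial and other matrix-bound cells moved in both directions, with 4 subunits higher and 3 subunits and the adaptor gene lower, out of a list of 17 genes. Itgb6 (ENSMUSG00000026971, chromosome 2, 60598292 to 60722643), the β subunit of αvβ6, an epithelial integrin that wounded epidermis induces, had 45.4, 64.9 and 83.4 normalised reads in controls against 398, 283, 188 and 243 in KA (log2 fold change 1.96, SE 0.29, adjusted p = 0.000231). Itga7 (ENSMUSG00000025348, chromosome 10, 128933818 to 128958282), a laminin receptor subunit known mainly from muscle, had 73.8, 82.5 and 123 normalised reads in controls against 577, 382, 402 and 468 in KA, the largest rise of any integrin here (log2 fold change 2.16, SE 0.22, adjusted p = 3.95e-05). Every KA library held over 2 times the highest control in both genes.

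Itga5 (ENSMUSG00000000555, chromosome 15, 103344286 to 103366763), the fibronectin receptor subunit, had 90.9, 76.3 and 108 normalised reads in controls against 269, 228, 152 and 151 in KA (log2 fold change 0.98, SE 0.25, adjusted p = 0.00431). Itgb8 (ENSMUSG00000025321, chromosome 12, 119158022 to 119238802), the subunit of αvβ8, an activator of TGF-β, had 249.9, 246 and 243 normalised reads in controls against 442, 481, 380.2 and 355 in KA (log2 fold change 0.61, SE 0.15, adjusted p = 0.00359). Neither passed among females alone, where the log2 fold change was 0.52 for Itga5 (adjusted p = 0.143) and 0.49 for Itgb8 (adjusted p = 0.0887). The smooth muscle marker Acta2 (the 1 of 6 such markers in the table) was 18.9 to 26.8 normalised reads in controls and 46.2 to 129 in KA, and its part in the Itga7 result was not tested.

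Itga2 and Itga1, whose products are α chains of collagen receptors, were both lower, and no other collagen-binding α chain was analysed here. Itga2 (ENSMUSG00000015533, chromosome 13, 114833081 to 114932100) had 577, 448 and 409.8 normalised reads in controls against 245, 260.3, 162 and 336 in KA (log2 fold change -1.07, SE 0.23, adjusted p = 0.00202). Its neighbour Itga1 (ENSMUSG00000042284, chromosome 13, 114953096 to 115101964), 20995 bases away on the same strand, had 67.2, 50.5 and 65.0 normalised reads in controls against 25.7, 28.2, 15.7 and 38.4 in KA (log2 fold change -1.31, SE 0.33, adjusted p = 0.004). Both were lowest in KA 3, and annotated Itga1 overlaps Pelo on the same strand, so a part of its reads is uncertain. Itgb5 (ENSMUSG00000022817, chromosome 16, 33829665 to 33949338), the β subunit of the vitronectin receptor αvβ5, had 2936, 2685 and 2841 normalised reads in controls against 1672, 1732, 2663 and 1728 in KA (log2 fold change -0.66, SE 0.18, adjusted p = 0.00544). KA 3 stood well above the other KA libraries and just under the controls, and females alone did not pass (log2 fold change -0.49, adjusted p = 0.0693). Itgb1bp1, the adaptor gene, had a log2 fold change of -0.57, SE 0.17, adjusted p = 0.00936. It overlapped between groups and lost its call without control 3 (adjusted p = 0.0790), and it overlaps Asap2 and Cpsf3 on the opposite strand.

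Integrins of leukocytes and platelets all had higher means in KA, and 3 of the 5 in the table passed (60.0%, beside 91.5% of all genes tested). Itgax (ENSMUSG00000030789, chromosome 7, 128129547 to 128150657), encoding CD11c of dendritic cells and other myeloid cells, had 187, 145 and 216 normalised reads in controls against 462, 464, 367 and 470.3 in KA (log2 fold change 1.13, SE 0.18, adjusted p = 0.000326). Itgal (ENSMUSG00000030830, chromosome 7, 127296260 to 127335138), the α chain of LFA-1, had 93.7, 101 and 123 normalised reads in controls against 281, 225, 134 and 184 in KA (log2 fold change 0.82, SE 0.25, adjusted p = 0.00989). Itga2b (ENSMUSG00000034664, chromosome 11, 102453297 to 102470122), the platelet integrin chain, had 64.4, 107 and 105 normalised reads in controls against 158, 232, 131 and 199 in KA (log2 fold change 0.83, SE 0.26, adjusted p = 0.0125). In each of the 3 the KA libraries lay above all controls, with KA 3 lowest. Among females alone Itgal (log2 fold change 0.46, adjusted p = 0.197) and Itga2b (0.87, adjusted p = 0.0537) did not pass.

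Itgb2, the β chain that Itgal and Itgax products share, had 148, 116 and 182 normalised reads in controls against 237, 197, 191 and 288 in KA and did not pass (log2 fold change 0.48, SE 0.22, adjusted p = 0.0567). Itgae, encoding the CD103 chain that binds E-cadherin, had 225, 203 and 306 normalised reads in controls against 376, 363, 262 and 412 in KA and did not pass either (log2 fold change 0.39, SE 0.20, adjusted p = 0.0792). Both passed with the authors' size factors (adjusted p = 0.0203 for Itgb2 and 0.0274 for Itgae), without control 3 (0.0271 and 0.0250) and without KA 3 (0.0410 and 0.0236), which brings the count to 5 of 5. Passing with the authors' size factors was largely fixed in advance, because the authors' own test had selected the genes of the table. Itgb2 and Itgae each passed in only 4 of the alternative settings. The highest adjusted p over all alternatives was 0.211 for Itgb2 and 0.400 for Itgae. Per kilobase, Itgax over Itgb2 was 0.784 ± 0.0278 (SD, n = 3) in controls and 1.25 ± 0.188 (SD, n = 4) in KA, without overlap (two-sided exact permutation p = 0.0571, the smallest possible). This ratio too was chosen after the values were seen, so its p-value only restates the separation.

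Leukocyte markers did not move as one. The 6 of 8 Langerhans and dendritic cell markers in the table all rose, with a summed level of 23851 to 33211 normalised reads in controls and 45512 to 67571 in KA. Cd207, the langerin gene, had 569.9, 742 and 785 normalised reads in controls against 1481, 1524, 1305 and 1165 in KA (log2 fold change 0.83, SE 0.14, adjusted p = 0.000543). Of the 10 T cell markers 5 were listed, 4 of them lower and Trac not past the threshold, and their sum was 1335 to 1709.8 in controls and 707 to 839.8 in KA. Trac went the other way, with a mean of 90.3 normalised reads in KA against 44.4 in controls and overlapping groups. Its log2 fold change was 0.89, SE 0.40 (adjusted p = 0.0511, and 0.0266 with the authors' size factors). Trdc, the constant region of the δ chain of the T cell receptor, had 457, 379 and 494 normalised reads in controls against 160.2, 127, 126 and 139 in KA (log2 fold change -1.82, SE 0.16, adjusted p = 1.96e-05). Of 10 myeloid markers 7 were listed, 4 of them higher and 3 lower, and their sum was 878 to 1142 in controls and 1809.6 to 2156 in KA. Csf1r made up the largest part of that sum. Those higher, by log2 fold change, were Cxcr2 (7.04, with at most 5 counts in any control), Clec7a (3.11), Lyz2 (1.62) and Csf1r (0.84). Adgre1 (-1.56), Fcgr3 (-1.55) and Cd68 (-0.78) were lower, with overlapping groups in Fcgr3. The part of these cell types in the integrin results was not tested.

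**Figure D4:**
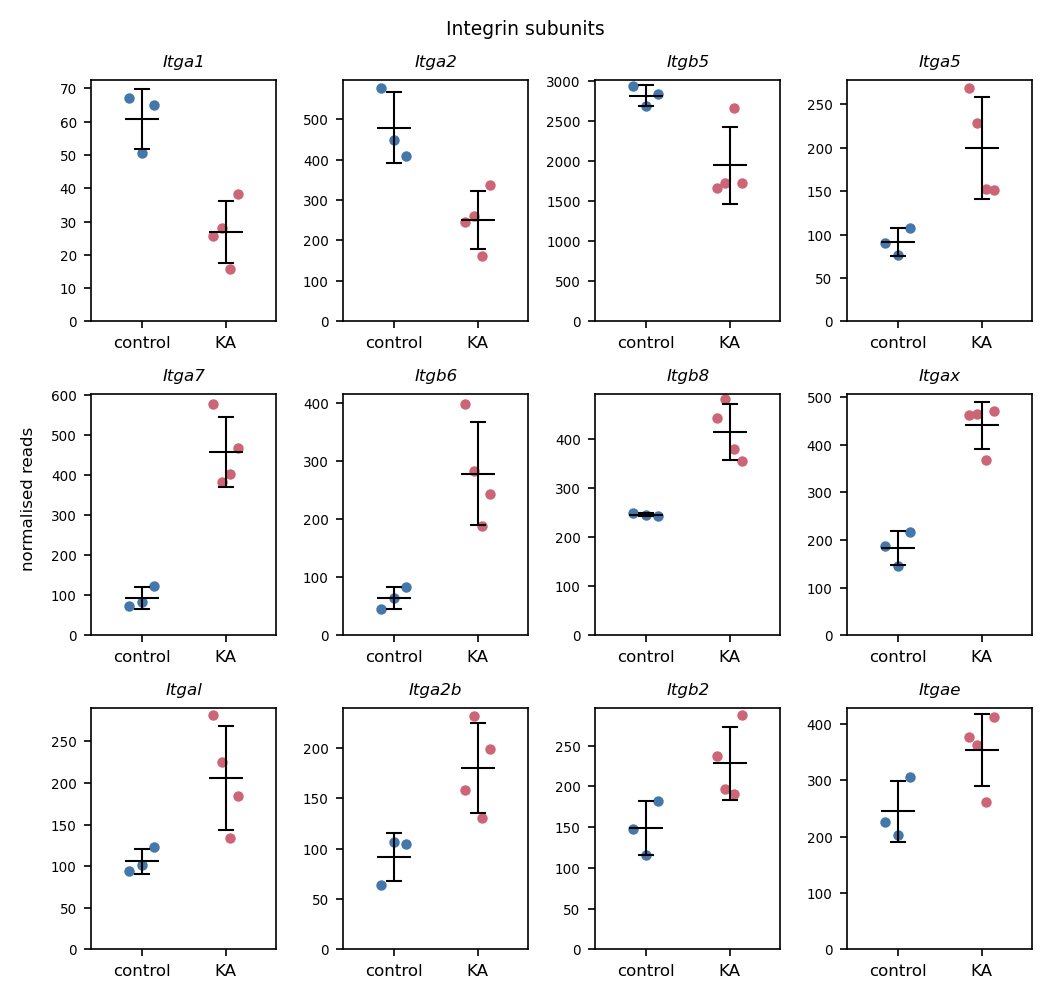
Normalised reads per library for 12 integrin subunits (3 controls blue, 4 KA red, mean and SD bars, linear axes from 0). Itga1, Itga2 and Itgb5 are lower in KA, the panels from Itga5 to Itgb2 are higher without overlap, and Itgae overlaps between groups.

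Ordered by level per kilobase of gene length, Col17a1 was the most abundant of the 44 genes in controls, at 8813 ± 1374 normalised reads per kilobase (SD, n = 3), followed by Itgb4 at 1246 ± 121 and Lamb3 at 1138 ± 60.2, which did not differ beyond their spread. Agrn came next at 897 ± 76.4, then Itgb5 at 794 ± 35.7 and Col16a1 at 711 ± 62.3. Plec, Postn and Dst, at 620.3 ± 75.2, 611 ± 133 and 585 ± 60.8, lay within each other's spread. The place of Dst depends on its length in the table, 41155 bases, which does not separate its isoforms. In KA the order began with Col17a1 at 4255 ± 1066 (SD, n = 4) and Postn at 1878 ± 537, ahead of Itgb4 at 886 ± 151 and Lamb3 at 721 ± 78.7. Dst, at 224 ± 52.5, fell below Plec, at 443 ± 59.8. Levels of Plec, Col18a1, Col20a1 and Itgae are uncertain to the extent that reads were shared with the overlapping genes Parp10, Slc19a1, BX649560.1 and Haspin.

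**Figure D5:**
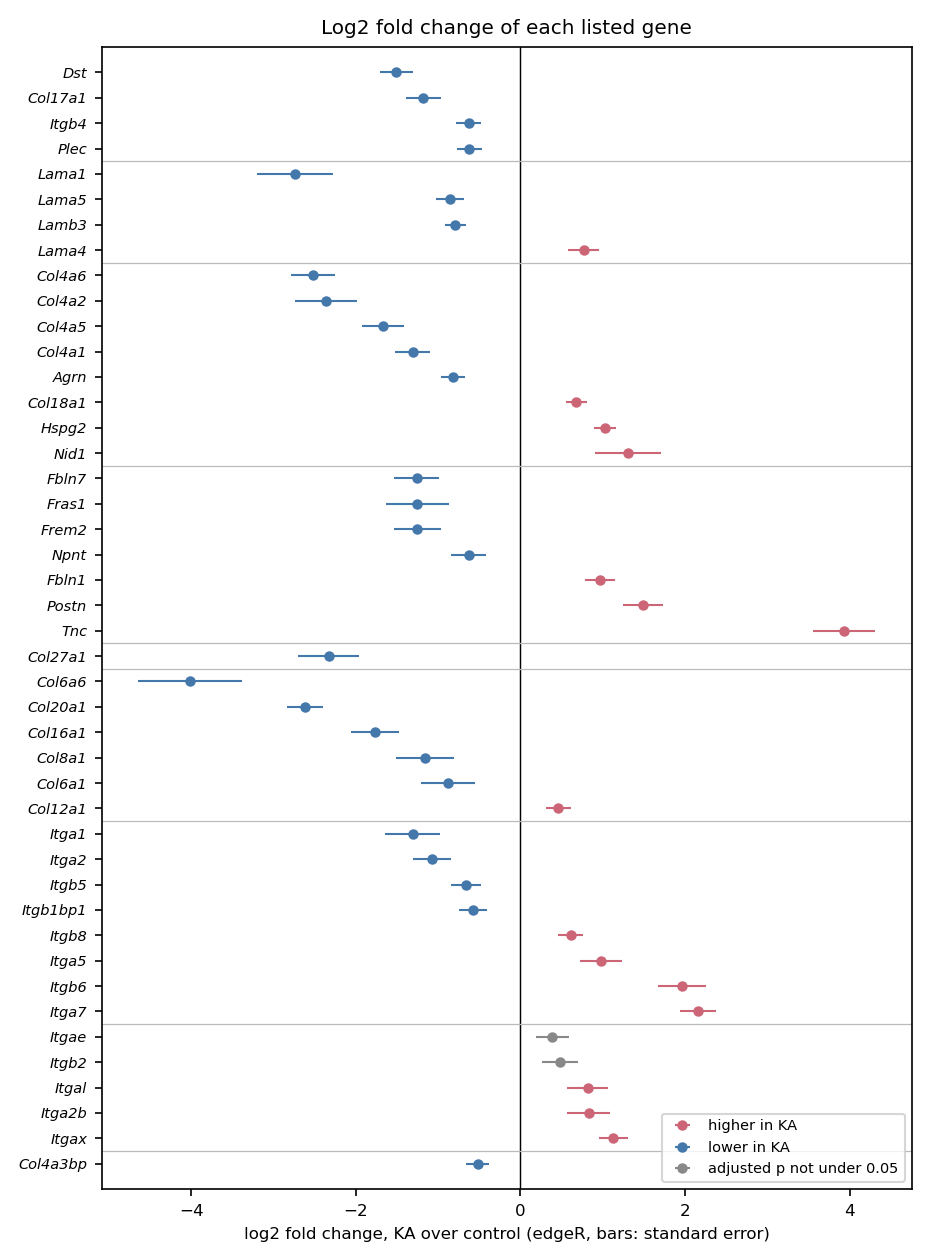
Each point is the log2 fold change of 1 gene, KA over control, from the edgeR fit on all listed genes, with its standard error as a bar and the gene groups separated by lines. All 4 hemidesmosome genes lie left of 0, all 5 leukocyte and platelet integrins lie right of it, with Itgb2 and Itgae in grey, and the other groups with more than 1 gene have points on both sides.

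Other genes of matrix attachment, from lists that hold none of the 44, were measured in the same fit. Of 15 partners of hemidesmosomes and integrins 9 were in the table, 6 lower, 2 higher and 1 not past the threshold. Cd44, the hyaluronan receptor, had 2515, 2917 and 3135 normalised reads in controls against 12886, 11397, 8464 and 11759 in KA (log2 fold change 1.83, SE 0.15, adjusted p = 1.44e-05). Cd82, a tetraspanin that associates with integrins, had 6097, 5656 and 6611 normalised reads in controls against 1524, 2010.0, 2089 and 1679 in KA (log2 fold change -1.88, SE 0.14, adjusted p = 8.22e-06). The groups did not overlap in either gene. Of 31 focal adhesion genes 16 were listed, 12 lower and 2 higher, and 2 did not pass. Kank1, a talin-binding scaffold gene, had 9175, 7616 and 8656 normalised reads in controls against 2871, 3167, 2853 and 4301 in KA (log2 fold change -1.49, SE 0.17, adjusted p = 6.12e-05). Phldb1, which encodes a protein that anchors microtubules near adhesions, was lower as well (log2 fold change -2.02, SE 0.26, adjusted p = 0.000148), as was Fermt1, the kindlin-1 gene needed to activate epidermal integrins (log2 fold change -0.79, SE 0.12, adjusted p = 0.000231).

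Collagen-modifying enzymes split, with 5 of 12 listed genes higher and 7 lower, of 29 on the list. P4hb, the β subunit of prolyl hydroxylase, rose (log2 fold change 0.86, SE 0.14, adjusted p = 0.000336), whereas P3h4, a partner of the lysyl hydroxylation complex, fell (log2 fold change -1.18, SE 0.15, adjusted p = 0.000131). P4ha3 was listed at 0 counts in all 3 controls and had 32, 33, 12 and 12 counts in KA, at least 8.44-fold higher against a floor of 3 counts per control library. Of the 25 listed matrix glycoproteins and proteoglycans (56 on the list) 17 fell and 8 rose. Fbn2, the fibrillin-2 gene, had 6.63, 10.3 and 4.01 normalised reads in controls against 367, 282, 319 and 196 in KA (log2 fold change 5.26, SE 0.36, adjusted p = 4.88e-06), and Cyr61, a matricellular gene, had 4614, 4904 and 5755 normalised reads in controls against 1071, 1690.0, 1289 and 1076 in KA (log2 fold change -2.12, SE 0.17, adjusted p = 1.08e-05). Thbs3, a thrombospondin gene, fell too (log2 fold change -2.18, SE 0.19, adjusted p = 1.9e-05). The median log2 fold change of the 25 was -1.15, beside 0.22 over all genes tested.

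The remaining gene, Col4a3bp (ENSMUSG00000021669, chromosome 13, 96542618 to 96640167), matched the rule by its symbol only and encodes CERT, which carries ceramide from the endoplasmic reticulum to the Golgi. It had 1540.3, 1123 and 1184 normalised reads in controls against 964, 920.5, 1017 and 1022 in KA (log2 fold change -0.52, SE 0.14, adjusted p = 0.00609), with no overlap between groups.

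Within the KA group the libraries were not equally far from controls. Of the 27 genes that fell, KA 1 was the lowest KA library in 19 (70.4%), as in 56.1% of all 3212 genes called lower. Of the 15 that rose, KA 1 was the highest in 10 (66.7%) and KA 3 the lowest in 10 (66.7%), as in 63.2% and 51.6% of all 2976 genes called higher. The 27 genes that fell were highest in KA 4 in 13 (48.1%) and in KA 3 in 9 (33.3%), against 32.9% and 47.3% of all genes called lower. Krt15 was lowest in KA 1 and highest in KA 3.

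In the lower run of animal numbers alone 25 of the 27 falls and 14 of the 15 rises passed, Col6a6 being too scarce there to test, and the higher run, with 1 control, was not fitted alone. With the run as a term all 27 and all 15 passed. Among females alone 23 of the 27 and 10 of the 15 passed, and males, with 1 control, were not fitted alone. The shares of all tested genes that passed in these subsets are not given here, so these counts cannot be set beside them.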

How the data were processed

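Bulk RNA-seq of epidermis from 4 KA and 3 control mice was analysed, with groups taken from the sample titles. RNA was extracted with an RNeasy kit and libraries made with a NEBNext Ultra kit, per the labels' protocols. The submitters' processing notes name fastp, STAR 2.6.1d, featureCounts 1.5.0-p3, DESeq2 1.40.2 and mm10, with no role or order; the strand setting is not given in the sources used here. The deposited table holds raw read counts per gene. Beside them the authors give normalised reads, a signal equal to the count over 1 size factor per library (0.8876 to 1.247). The authors also deposited log2 fold changes, a test statistic (a score), p-values and adjusted p-values, which were used only to check the selection of genes and the direction of change. Their adjustment ran over 19407 genes, of which the 7091 listed (36.5%) had an adjusted p under 0.05, so calls here describe genes already selected on these libraries.

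The counts were fitted with edgeR 4.0.16 (R 4.3.3): filterByExpr, which left out 330 genes, TMM factors over listed genes, glmQLFit with robust dispersions and glmQLFTest, with Benjamini-Hochberg adjustment over 6761 genes and a threshold of 0.05. The common biological coefficient of variation was 0.193. The TMM factors were taken over genes of which 91.5% were called, so the level that stands for no change is uncertain. The authors' size factors gave log2 fold changes higher by a median of 0.134. Alternatives were other scalings and filters, DESeq2 1.42.0, limma-voom (limma 3.58.1), sex, run, sample number and title letter terms, subsets, and leaving out each library. A floor of 3 counts stood for 0 in bounds. The labels name separate animals. Levels per kilobase use the length in the table. Positions are those of the table (mm10), and all 44 agreed in position and symbol with GENCODE M21 (GRCm38). Of the 44, 26 overlap another annotated gene, 9 of them a protein-coding one. Promoter windows came from RefSeq (GRCm38.p6) and matched 33 of the 44 by symbol.

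Values per library were given for all hemidesmosome genes, for up to 3 genes with the highest and 3 with the lowest log2 fold change per list among called genes with at least 2 CPM, and for their partner chains. Other lists were given as counts with up to 3 genes of smallest adjusted p. The remaining genes of the 44 were added so that each is accounted for. Members and lists were chosen with earlier results of these data known. Males and the higher run of animal numbers, with 1 control each, were not fitted alone.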

Additional observations from a re-analysis of the deposited data

Results flagged for a closer look

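For 79 of the genes named or listed here, the distance from the most extreme KA library to the library next to it was divided by the spread from lowest to highest KA library. Dixon's 95% limit for 4 samples was passed by 4 genes, and 1 in 20, or 3.95 of 79, would pass by chance. Itgb5, the vitronectin receptor subunit, had KA 3 far above the other KA libraries (ratio 0.940). Itgax, encoding CD11c, had KA 3 far below the others (0.919), and so did Clec7a, a myeloid lectin gene (0.960). Col6a6 had KA 4 lowest (0.878), which rests on 0 counts against 1 in each of the other KA libraries.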

How the results depend on the processing

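None of the 44 genes changed direction under any setting tried. The 15 higher and 27 lower calls were unchanged with RLE or upper quartile factors, without a filter, with DESeq2, with limma-voom and with the run as a term. Requiring a log2 fold change of at least 1 left 7 higher and 17 lower. Leaving out 1 library at a time gave 15 to 17 higher and 24 to 27 lower. An adjusted p under 0.01 left 12 and 25, a mean of at least 10 counts 15 and 26, adjustment over 19407 genes 15 and 26 (Col6a1 lost), sex as a term 16 and 27 (Itgb2 added) and females alone 10 and 23.

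With the sample number as a block the counts were 13 higher and 27 lower, Nid1 (adjusted p = 0.0559) and Col12a1 (0.0629) losing their calls. With the title letter as a block instead, an alternative chosen after seeing the data, the same 15 higher and 27 lower genes were called, while the Krt5 log2 fold change (0.36, adjusted p = 0.102) no longer passed. The labels do not say whether the numbers pair the animals. Deviations from group means of same-numbered libraries correlated at -0.202, 0.148 and -0.0913 over genes for numbers 1, 2 and 3. Control 1 correlated best with KA 4 (0.204). With so few libraries in each group these correlations cannot settle whether the animals are paired. Low counts limit Nid1, Fras1 and Col6a6, and the selection of the table limits every count of calls.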
